A study of Mus musculus with 2 samples.

Results

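The 6 miRNA genes described here, each known for tissues outside the brain, were followed in small RNA libraries of embryonic mouse forebrain. They are Mir206 and Mir133b of skeletal muscle, Mir122 of hepatocytes, Mir375 of pancreatic islets, and Mir192 and Mir194-2 of gut, liver and kidney. They were taken by name from the 1973 miRNA genes of the deposited tables, and all 6 members had a row. The libraries are 2 biological replicates of forebrain from B6NCrl embryos at embryonic day 14.5, with no transgene, deletion, drug or second tissue named in the labels. Each is described as a single forebrain, collected on a different day, although the sex field reads pooled and both carry 1 donor identifier. These labels do not settle whether the libraries come from independent embryos, so biological and technical spread between them cannot be told apart. With 1 group there is no comparison between conditions, and every test given compares the reads of these 2 libraries.

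A miRNA is cut from a hairpin precursor, and bases 2 to 8 of the mature strand, called the seed, do most of the pairing with target mRNAs. Skeletal muscle makes miR-206 and miR-133 under the control of myogenic factors, and miR-122 is the dominant miRNA of hepatocytes. Mature miR-375 is abundant in the endocrine cells of the islets and is also made in the pituitary. Clusters of miR-192 with miR-194 are active in intestinal epithelium, liver and kidney. None of the 6 genes is a standard marker of forebrain neurons or of their progenitors.

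The mature sequences decide which reads could be counted, since a read that matched several places was assigned to no gene. They are shown 5′ to 3′ from RefSeq on build GRCm38.p6 (mm10), with the seed in capitals. Entries were used for 5 of the 6 genes, with only the 5p arm for Mir375, and none is printed for Mir122.
miR-206-3p: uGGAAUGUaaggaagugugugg
miR-206-5p: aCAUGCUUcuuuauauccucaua
miR-133b-3p: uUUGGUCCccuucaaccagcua
miR-133b-5p: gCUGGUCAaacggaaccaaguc
miR-375-5p: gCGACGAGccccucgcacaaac
miR-192-5p: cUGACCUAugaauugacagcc
miR-192-3p: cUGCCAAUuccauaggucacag
miR-194-5p: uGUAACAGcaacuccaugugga
miR-194-2-3p: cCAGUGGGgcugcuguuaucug
Each arm was compared, without gaps, with every other miRNA hairpin of GENCODE M21. The nearest hairpins to miR-206-3p were Mir1a-1 and Mir1a-2, with 4 mismatches over 22 bases. Both arms of Mir192 were distinct as well, miR-192-5p with 3 mismatches to Mir215 and miR-192-3p with 7 to Mir1899. For miR-375-5p the nearest was Mir6361 with 7 mismatches, and miR-375-3p was not compared as an arm. The closest relation among the distinct arms was that of miR-133b-3p, which had 1 mismatch to the hairpins of Mir133a-1 and Mir133a-2. Only miR-194-5p occurred whole in another hairpin, that of Mir194-1. A genome sequence was not used here, so copies outside annotated miRNA genes were not searched.

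The relatives of the gut pair on chromosome 1 share part of these sequences and are printed for comparison.
miR-215-5p: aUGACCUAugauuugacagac
miR-194-1-3p: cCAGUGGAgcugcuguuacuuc
The seed of miR-215-5p equals that of miR-192-5p. With positions counted from 1 at the 5′ end, the first letter from miR-192-5p and the last from miR-215-5p, they differ by C1A, A12U and C20A, all outside the seed. The 3p arms of the miR-194 genes differ within the seed, by G8A from miR-194-2-3p to miR-194-1-3p, and further by U19C, C20U and G22C. Capitals in the hairpins below mark the longest stretch they share, which is 22 bases long and is the whole of miR-194-5p.
Mir194-2 hairpin: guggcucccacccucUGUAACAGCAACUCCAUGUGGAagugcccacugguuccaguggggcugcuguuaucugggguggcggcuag
Mir194-1 hairpin: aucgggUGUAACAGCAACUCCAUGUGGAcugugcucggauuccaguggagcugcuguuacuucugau
A read that lies wholly inside the capitals fits both hairpins equally well. Of the 67 windows of 20 bases in the Mir194-2 hairpin, 3 (4.48%) occurred in another annotated hairpin, and of the 100 in Mir133b 2 (2.00%) did. For Mir206, Mir375 and Mir192 the count was 0 of 54, 0 of 45 and 0 of 70. Counts of Mir194-2 therefore leave out an unknown number of miR-194-5p reads, and the arms behind its counts were not separated.

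The libraries held 7080317 counts on the strand of a miRNA gene in replicate 1 and 7946585 in replicate 2. Levels are given as counts per 1000000 such counts (CPM), so that a single count was worth 0.141 and 0.126 CPM. A further 43.3% and 42.2% of all reads matched several places. The neural miRNAs listed for the labelled tissue were present, with 8 of 8 list genes detected and 1.65% ± 0.0909 of the counts (SD, n = 2). Mir137 led at 7614 ± 481 CPM and Mir9-2 was lowest at 5.00 ± 1.47 CPM. The list was chosen with earlier results of these data known. Outside it, the neuronal Mir124a genes had few assigned counts in replicates 1 and 2. Mir124a-1 had 18 and 15, Mir124a-2 had 10 and 17, and Mir124a-3 had 3 and 4. Reads that fit several places were assigned to no gene, and the sequences of the Mir124a and Mir9 genes were not compared with other hairpins. Low assigned counts of these genes therefore set no limit on mature miR-124 or miR-9. Markers of blood cells, vessels, stroma and epithelia were present too. In replicates 1 and 2 they summed to 406 and 543 CPM for the 3 erythroid genes, 22103 and 22365 CPM for the endothelial Mir126a, 3621 and 4042 CPM for 5 smooth muscle and stromal genes, 1616 and 2147 CPM for 7 epithelial genes, and 186 and 191 CPM for 3 myeloid and lymphoid genes. In such bulk tissue, fewer cells of a type and less RNA per cell cannot be told apart. Beside the levels of the 6 genes, the part of these other cells was not tested.

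All 6 genes had counts in both libraries, at very different levels. The mean of Mir375 was 404-fold that of Mir133b, a fold of 277 in replicate 1 and 641 in replicate 2, where Mir133b was at the floor of 3 counts. Their summed share of the miRNA counts was 0.0365% ± 0.00199 (SD, n = 2), with 2484 counts in replicate 1 and 3012 in replicate 2. Mir375 alone made up 55.8% and 63.9% of those counts. A gene counted as detected if each library gave it at least 10 counts, which held for 5 of the 6 and for 20.2% of all 1973 genes. The exception was Mir133b. Of the 6, 5 lay below 81.0 CPM, the median of the 399 detected genes, and Mir375 lay above it. Opposite-strand counts at the 6 genes came to 0 in replicate 1 and 1 in replicate 2, the latter at Mir122.

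**Figure D1:**
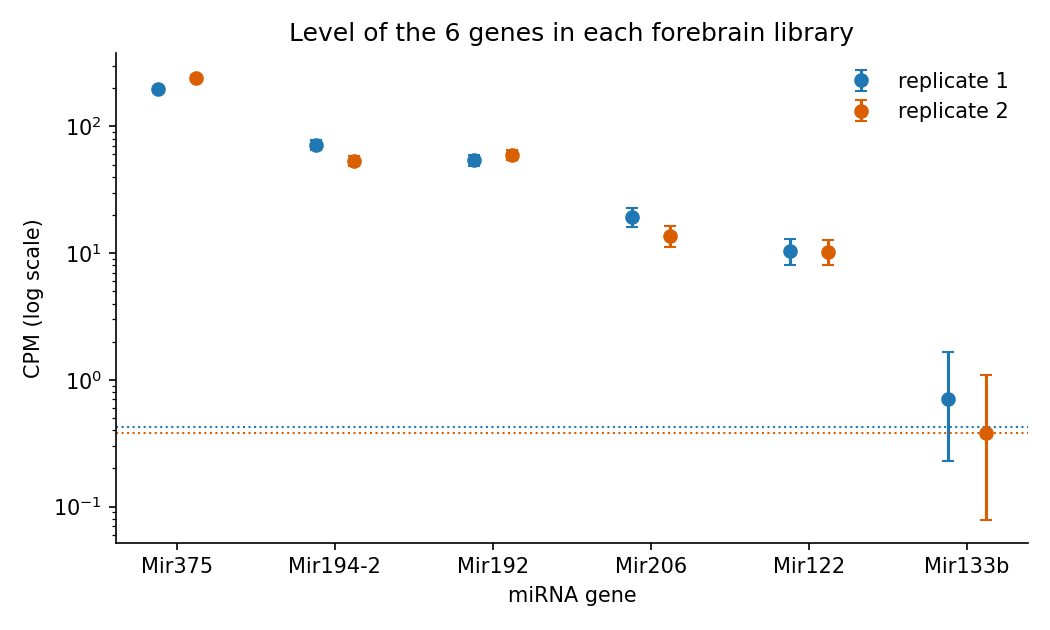
Level of each of the 6 genes in replicates 1 and 2, in CPM on a log axis. Points are single libraries, bars are exact 95% Poisson intervals of the counts, and dotted lines mark 3 counts (0.424 and 0.378 CPM). Mir375 stands highest at 196 and 242 CPM, and Mir133b lies near the dotted lines at 0.706 and 0.378 CPM.

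Among the muscle genes, Mir206 was present at a low level and Mir133b at a handful of reads. Mir206 (ENSMUSG00000065559.1), whose product promotes myoblast differentiation, lies at chr1:20679010-20679082 on the plus strand of mm10, in an exon of the lincRNA Gm28653. It had 136 counts in replicate 1 and 108 in replicate 2, or 19.2 CPM (95% Poisson interval 16.1 to 22.7) and 13.6 CPM (11.1 to 16.4). The mean of 16.4 ± 3.97 CPM (SD, n = 2) placed it 276th among the 1973 genes, and 1 miRNA count in 60978 was Mir206. Replicate 1 was the higher library, and the intervals overlapped at their ends.

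Mir133b (ENSMUSG00000065480.1), the relative of miR-133a that shares the transcript of Mir206, lies 3686 bp downstream at chr1:20682769-20682887, in an exon of the same lincRNA. It had 5 counts in replicate 1 and 3 in replicate 2, or 0.706 and 0.378 CPM. Replicate 2 thus stood at the floor of 3 counts, and the 95% Poisson intervals of 1.62 to 11.7 and 0.619 to 8.77 counts overlapped. The mean of 0.542 ± 0.232 CPM ranked it 502nd.

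The rest of the striated muscle list gave little further signal. Of its 10 genes, 9 had a row and 3 were detected, namely Mir206, Mir208b and Mir1b. Mir208b, in an intron of the slow and cardiac myosin gene Myh7, had 33 and 22 counts in replicates 1 and 2. Mir1b, which overlaps Mir1a-2 on the other strand, had 27 and 16 counts. Of its 103 windows of 20 bases, 53 occurred on either strand of Mir1a-1 or Mir1a-2. Mir1a-2 lies at the same place, so this number does not measure reads that fit several places. Mir499, in an intron of the myosin gene Myh7b, had 5 and 16 counts, and Mir208a, in an intron of the cardiac myosin gene Myh6, had 1 in each library. The defining striated muscle genes Mir1a-1, Mir133a-1 and Mir133a-2 were at 0 in both. Their hairpins share windows of 20 bases with other annotated hairpins, so a 0 in uniquely assigned counts sets no limit on mature miR-1 or miR-133a. Mir206 held 65.7% and 65.1% of the list's counts, which summed to 29.2 and 20.9 CPM. The share of the muscle list in Mir206 was thus nearly the same in both libraries.

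Mir122 was the most even member between the libraries. The gene (ENSMUSG00000065402.1), whose product supports cholesterol metabolism in hepatocytes, lies at chr18:65248861-65248926 on the plus strand, in an exon of the lincRNA AC157910.3. It had 73 counts in replicate 1 and 81 in replicate 2, or 10.3 CPM (95% Poisson interval 8.08 to 13.0) and 10.2 CPM (8.09 to 12.7). The mean was 10.3 ± 0.0829 CPM (SD, n = 2), rank 290 in each library, and 1 miRNA count in 97545. None of the 47 windows of 20 bases in its hairpin occurred in another annotated hairpin. Its counts were above the floor of 3 counts by a wide margin in both libraries, and 1.60-fold below the mean of Mir206.

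Mir375 was the highest of the 6. The gene (ENSMUSG00000065616.2), whose product restrains insulin secretion in beta cells, lies at chr1:74900658-74900721 on the minus strand, in no annotated host gene and 1349 bp from Cfap65. It had 1385 counts in replicate 1 and 1924 in replicate 2, or 196 CPM (95% Poisson interval 185 to 206) and 242 CPM (231 to 253). The mean of 219 ± 32.9 CPM (SD, n = 2) ranked it 148th, with 1 miRNA count in 4569. Replicate 2 was the higher library and the counting intervals did not overlap.

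The other pancreatic miRNAs stood below Mir375 and were detected in both libraries. Mir217 and the Mir216 genes, which mark exocrine acinar cells, lie together on chromosome 11. Mir217 had 353 and 339 counts (46.3 ± 5.09 CPM), Mir216b had 177 and 208 (25.6 ± 0.831 CPM), and Mir216a had 58 and 84 (9.38 ± 1.68 CPM). None of the 3 differed between the libraries by Fisher's exact test, with adjusted p-values of 0.140, 0.932 and 0.380. Mir375 held 70.2% of the list's counts in replicate 1 and 75.3% in replicate 2.

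Mir194-2 and Mir192 had similar levels. Both lie on the plus strand of chromosome 19, Mir194-2 (ENSMUSG00000065582.1) at chr19:6264643-6264728 and Mir192 (ENSMUSG00000065523.1) at chr19:6264844-6264932, with 115 bp between them. Neither is inside an annotated host gene, and the nearest gene on their strand is Atg2a. Mir194-2 had 504 counts in replicate 1 and 425 in replicate 2, or 71.2 CPM (95% Poisson interval 65.1 to 77.7) and 53.5 CPM (48.5 to 58.8). Mir192 had 381 and 471, or 53.8 CPM (48.5 to 59.5) and 59.3 CPM (54.0 to 64.9). The means were 62.3 ± 12.5 CPM for Mir194-2 and 56.5 ± 3.86 CPM for Mir192 (SD, n = 2). Mir194-2 was the higher of the pair in replicate 1 and Mir192 in replicate 2.

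Of the second pair of this family, on chromosome 1, almost nothing was counted. Mir215, with its own hairpin sequence and the seed of miR-192-5p, had 5 and 10 counts in replicates 1 and 2, or 0.982 ± 0.390 CPM. Mir194-1 had 6 and 4 counts, or 0.675 ± 0.243 CPM, from a hairpin that shares the whole of miR-194-5p with Mir194-2. Mir192 and Mir194-2 together held 98.8% and 98.5% of the 4-gene list. Mir6926, which shares the seed of miR-194-2-3p, had 1 and 3 counts.

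**Figure D2:**
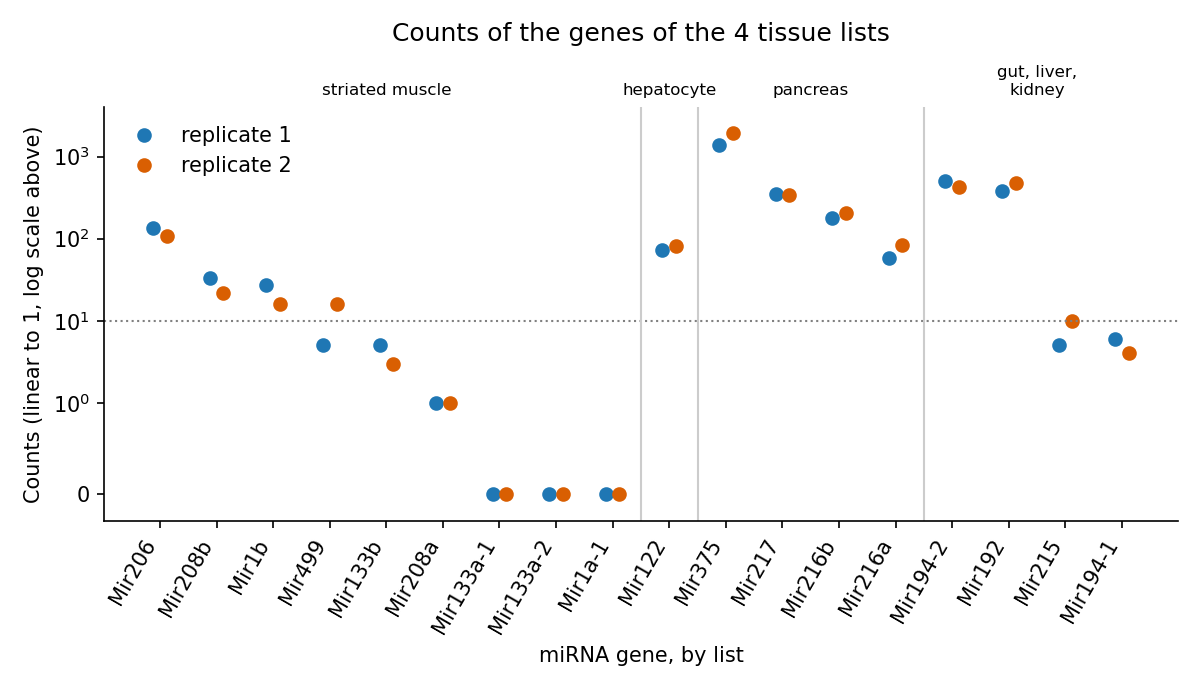
Counts of each gene of the 4 tissue lists in replicates 1 and 2, on an axis that is linear up to 1 count and logarithmic above, with a dotted line at 10 counts. In the striated muscle list Mir206 stands highest and 3 genes lie at 0, while the 4 pancreas genes all lie above the line.

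By mean level of assigned counts, the order was Mir375, Mir194-2, Mir192, Mir206, Mir122 and Mir133b. It was the same when counts were divided by hairpin length. Mir375 stood 3.51-fold above Mir194-2, and the ranges of these genes over the libraries lay apart. Between Mir194-2 and Mir192 the difference of 5.79 CPM was smaller than the SD of Mir194-2, their ranges overlapped, and without replicate 1 they changed places. Mir192 stood 3.45-fold above Mir206, and Mir122 stood 18.9-fold above Mir133b, both with ranges apart. Mir206 and Mir122 were separate as well, but by only 1.86-fold in replicate 1 and 1.33-fold in replicate 2. Mir99a, the gene with most counts, stood 1376-fold above Mir375 and 29369-fold above Mir122.

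Genes of nearest level give a scale for these values. Mir375 fell between Mir540 of the Dlk1-Dio3 region (220 ± 4.19 CPM) and Mir384 (213 ± 48.9 CPM). Mir194-2 fell between Mir666 (62.4 ± 0.285 CPM) and Mir30c-1 (60.8 ± 20.3 CPM), and Mir192 between the epithelial Mir200c (58.4 ± 25.3 CPM) and Mir103-2 (54.8 ± 6.54 CPM). Mir206 was next to Mir3059 (16.9 ± 0.0607 CPM) and Mir3066 (15.8 ± 2.19 CPM). Mir122 was next to Mir582 (10.5 ± 1.22 CPM) and Mir218-1 (10.2 ± 0.738 CPM). Mir6993 (5 and 3 counts) and Mir3110 (4 and 4 counts) flanked Mir133b. The likeness is of mean CPM over 2 libraries alone.

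**Figure D3:**
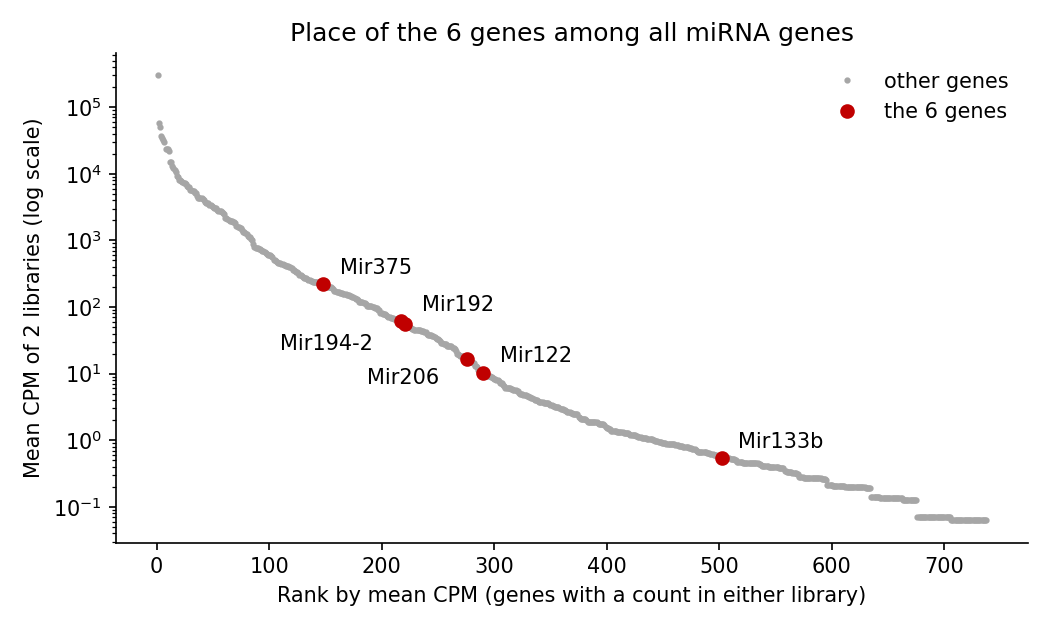
Mean CPM of 2 libraries (log axis) against rank for the 737 genes with a count in either library, with the 6 genes in red. Mir375 ranks 148th, Mir122 290th, and Mir133b 502nd, in the flat tail of genes with a few counts.

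Between the libraries, no member differed by 2-fold or more and passed the test. For each gene, its count and the rest of the miRNA counts were set against each other in Fisher's exact test (two-sided), with Benjamini-Hochberg adjustment over the 737 genes that had a count. With a minimum of 2-fold, 0 of the 6 members were called, against 1.49% of all genes tested, and 3 members had an unadjusted p under 0.05. With no minimum fold, 3 of 6 passed, against 26.3% of all genes tested. Of the 194 genes that passed, 69 were higher in replicate 2 and 125 in replicate 1, but 99 and 88 with median-of-ratios factors, which moved the median log2 ratio of the detected genes from -0.09 to 0.02. This test knows counting error only, and the libraries differed by more than that at many genes, so the fold differences are set beside those of all detected genes.

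Mir375 was 1.24-fold higher in replicate 2 (95% exact interval 1.15 to 1.33; Fisher's exact test, adjusted p = 8.34e-09). Mir194-2 was 1.33-fold higher in replicate 1 (1.17 to 1.52; Fisher's exact test, adjusted p = 7.12e-05), and so was Mir206, 1.41-fold (1.09 to 1.84; adjusted p = 0.0330). Mir192 had a ratio of replicate 2 over 1 of 1.10 (0.960 to 1.26; Fisher's exact test, adjusted p = 0.409) and Mir122 one of 0.989 (0.712 to 1.38; adjusted p = 1.00). The ratio of Mir133b was 0.535, with an interval of 0.0830 to 2.75 that its 8 counts leave wide (Fisher's exact test, adjusted p = 0.751). The pass of Mir206 was lost with TMM scaling (Fisher's exact test, adjusted p = 0.0923), with median-of-ratios factors (0.139), with totals without Mir99a (0.0790) and when all 1973 genes entered the adjustment (0.0884). Mir192 passed with median-of-ratios factors only (1.19-fold, adjusted p = 0.0492). Mir375 and Mir194-2 passed under all of these.

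These differences were ordinary in size for this pair of libraries. The 5 detected members lay a median of 1.24-fold apart, against 1.17-fold for the 399 detected genes, and their median log2 ratio was -0.02 against -0.09. Of the detected genes, 36.3% lay further apart than Mir375, 24.1% further than Mir194-2, 15.3% further than Mir206 and 96.0% further than Mir122. Lists of other cell types moved between the libraries to different degrees. In the direction of Mir375, the erythroid sum was 1.34-fold higher in replicate 2 and the epithelial sum 1.33-fold. With no minimum fold, 6 of 7 epithelial genes passed, against 26.3% of all genes tested. Mir203 held 8628 of the 11441 epithelial counts in replicate 1. Ratios of replicate 2 over 1 ran from 0.862 for Mir205 through 1.12 for Mir203 to 2.23 for Mir429. Among the erythroid genes they ran from 1.16 for Mir486 to 4.97 for Mir144. The sum of 5 Hox-cluster genes was 1.27-fold higher in replicate 2 (2 passed). The smooth muscle and stromal sum was 1.12-fold higher in replicate 2, the myeloid and lymphoid sum 1.03-fold and the endothelial Mir126a 1.01-fold. The forebrain neural sum was 1.08-fold higher in replicate 1. In the direction of Mir206, the striated muscle sum was 1.40-fold higher in replicate 1, with 1 of the 6 genes that had a count passing, and that gene was Mir206. Mir206 held 65.7% and 65.1% of that list's counts in replicates 1 and 2, so the sum is no separate measure. The part of these cells in the members' differences was not tested, and collection day and library cannot be told apart.

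**Figure D4:**
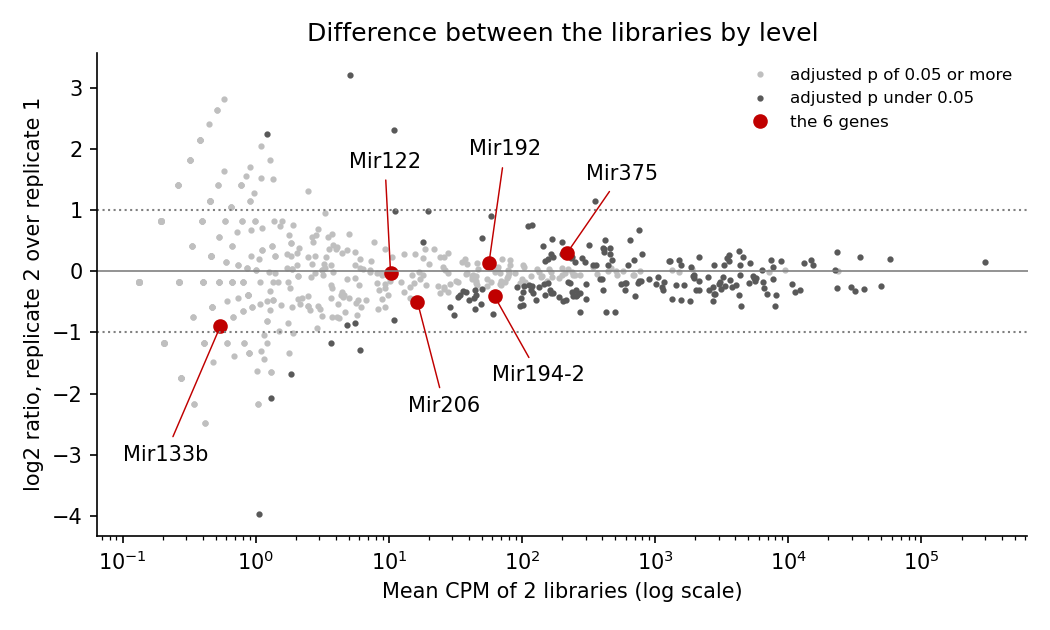
The log2 ratio of CPM, replicate 2 over replicate 1, against mean CPM (log axis) for genes with counts in both libraries, with the 6 genes in red and dotted lines at 2-fold. Dark points passed Fisher's exact test at an adjusted p of 0.05 with no minimum fold. Genes at 0 in either library are not drawn. All 6 genes lie between the dotted lines, and Mir133b is nearest to one.

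Within the gut pair, the balance between the assigned counts of the genes changed from 1 library to the other. Mir192 held 381 of 885 pair counts in replicate 1, or 43.1% (95% Clopper-Pearson interval 39.8 to 46.4), and 471 of 896 in replicate 2, or 52.6% (49.2 to 55.9). The difference of 9.52 percentage points passed Fisher's exact test (adjusted p = 3.42e-04 over 143 pairs of neighbouring same-strand miRNA genes at most 10 kb apart). Such a share does not depend on how the libraries were scaled, but it covers assigned counts only. Reads of Mir194-2 that fit another annotated hairpin equally well were assigned to no gene, so its part leaves out an unknown number. Whether that number differed between the libraries was not tested. Of the 143 pairs, 26.6% passed, and 4 differed by more points, of which only Mir669f and Mir669e passed, with 47.0 points (a pair singled out after its values were seen). By odds ratio, 8 passing pairs differed by more than the 1.47-fold of Mir192 and Mir194-2. The change in balance of assigned counts was thus large in points but not exceptional as a ratio.

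The muscle pair kept its balance of assigned counts within counting error. Mir206 held 136 of 141 pair counts in replicate 1, or 96.5% (95% Clopper-Pearson interval 91.9 to 98.8), and 108 of 111 in replicate 2, or 97.3% (92.3 to 99.4). The difference of 0.843 points did not pass Fisher's exact test (adjusted p = 1.00), and with 8 counts of Mir133b in all only a large change could have been seen. In assigned counts, Mir206 outnumbered Mir133b 27.2-fold in replicate 1 and 36.0-fold in replicate 2. Both lie in exons of the same lincRNA, but their sequences are not equally distinct. Mir206 shared 0 of its 54 windows of 20 bases with another annotated hairpin. The arm miR-133b-3p had 1 mismatch to the hairpins of Mir133a-1 and Mir133a-2. These folds therefore do not measure the balance of the mature miRNAs. How many Mir133b reads fell in the 2 windows it shares with the Mir133a hairpins, and so could fit several places, was not tested.

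**Figure D5:**
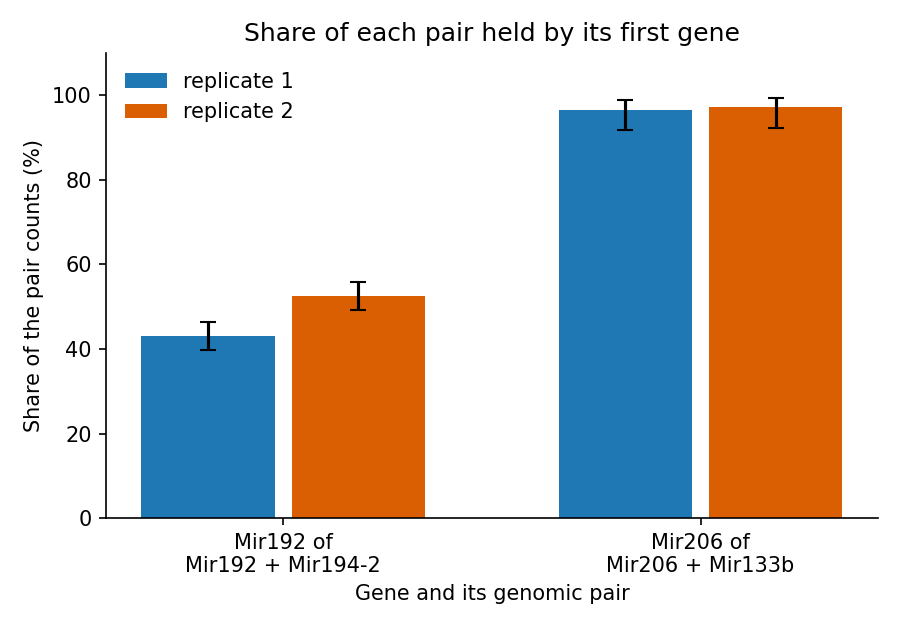
Share of the counts of each genomic pair held by Mir192 (of Mir192 and Mir194-2) and by Mir206 (of Mir206 and Mir133b), in percent, in replicates 1 and 2. Error bars are exact 95% binomial intervals. The bars of Mir192 stand at 43.1% and 52.6% with intervals apart, and those of Mir206 at 96.5% and 97.3%.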

How the data were processed

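Small RNA under 30 bases was sequenced from 2 forebrain libraries of mouse embryos at day 14.5. The authors deposited whole-number counts for each miRNA gene in a table per library, with 3 columns, read from the values as either strand, the gene's own strand and the opposite strand, and with 4 totals. Per the deposited read-me texts, they were made on mm10 with GENCODE M4 from 1 alignment file per library. Names of aligner and counting tool were not given in the sources used here. The totals name no gene and stayed out of library sizes. They held 61.9% of the reads in replicate 1 and 61.5% in replicate 2.

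Own-strand counts were scaled to CPM. Names and positions came from GENCODE M21, which matched 1894 of 1973 IDs. Intervals are exact Poisson, Clopper-Pearson or conditional binomial ones at 95%. These and the floor of 3 counts cover counting error only, since reads carry no molecular identifiers. Fisher's exact tests (scipy 1.17.1) were adjusted by Benjamini-Hochberg over all genes with a count, with a threshold of 0.05. The code was run on simulated Poisson counts in which only genes under 1000 CPM changed, since a change of the most abundant gene moves every ratio. That run left Mir99a unchanged and held counting error only. It therefore cannot show how the test behaves on the spread between these libraries. Pairs needed 20 counts per library. TMM factors came from edgeR 4.0.16 and median-of-ratios factors from DESeq2 1.42.0.

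The members and lists were chosen with earlier results of these data known. Named genes are the members, their 4 tissue lists, genes with a count that share a seed, genes next in level, the gene with most counts and genes within 10 kb of a member. Marker genes of other cell types were named besides, and the Mir124a genes were added after their values were seen. Alternatives covered strand, scaling, totals, count minimum, filter, fold, pseudocount, hairpin length and leaving out each replicate.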

Additional observations from a re-analysis of the deposited data

How the results depend on the processing

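With no minimum fold, 3 members were called between the libraries in place of 0, and 2 when all 1973 genes, those with no count included, entered the adjustment (an alternative chosen after seeing the data). That last setting called 178 of all 1973 genes (9.02%), and with the minimum of 2-fold it called 7 in place of 11. Testing only the 445 genes that reached 10 counts in at least a single library called 17. The split of the calls at 2-fold, higher in replicate 2 against replicate 1, was 5 and 6, and became 8 and 5 with TMM and 11 and 5 with median-of-ratios factors. The ratio of Mir122 changed direction to 1.04 with TMM and with totals without Mir99a, to 1.07 with median-of-ratios factors and to 1.00 with counts on either strand. Per 1000000 of all reads, in place of miRNA counts, the mean levels were lower throughout, from 83.8 for Mir375, 23.8 for Mir194-2, 21.7 for Mir192, 6.27 for Mir206 and 3.92 for Mir122 to 0.207 for Mir133b. With Mir99a left out of the totals they were higher, at 314, 88.9, 81.0, 23.4, 14.7 and 0.770 in the same order of genes. Per hairpin length, the share of Mir206 in its pair was 98.1%. Leaving out a replicate moved 0 to 2 members to another place in the order. The number of members detected was 6 with a minimum of 1 count, 5 with 30 and 4 with 100. No paired analysis was possible because there is only 1 group.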
